A study of Mus musculus with 7 samples.

Results

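Mouse chromosome 7 carries more protein-coding genes per Mb than any other autosome, yet its level of H3K4me1 fragments in the zygote ranked only 5th of 19. It was examined as all 1424 bins of 100 kb from its first fragment, at base 3001729, to its last, at base 145340957, among 26633 bins of chromosomes 1 to 19, X and Y. Each bin was placed in 1 of 3 groups from the RefSeq annotation. Receptor bins, 188 in number, overlapped a gene, pseudogenes included, whose symbol starts with Olfr (olfactory receptors) or Vmn (vomeronasal receptors). Other coding bins, 901 in number, overlapped other protein-coding genes and no receptor gene, and the remaining 335 bins overlapped neither. The chromosome was chosen by its measured level of fragments relative to its gene density in these same data, so its levels and their order among autosomes are descriptions, and no test was made.

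H3K4me1, monomethylation of lysine 4 of histone H3, marks enhancers and the flanks and bodies of active genes. It is often depleted right at the start site of an active gene, where the trimethylated form takes its place. Olfactory and vomeronasal receptors detect odours and pheromones in sensory neurons of the nose. Their genes lie in large tandem clusters, are AT-rich, and are kept silent outside those neurons. Chromosome 7 also carries kallikrein, Ceacam, Psg, Zfp and Nlrp gene clusters and several imprinted domains, in which a gene is expressed from the maternal or the paternal copy alone.

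The study combined CUT&Tag with full-length transcriptomics in single zygotes. CUT&Tag uses an antibody to bring the Tn5 transposase to a histone mark, so that sequenced fragments come from marked chromatin. The H3K4me1 group comprised 2 batches of untreated zygotes, each from 1 mouse, taken from females given 5 IU of PMSG and, 46 to 48 h later, 5 IU of hCG, at 23 post-hCG with no unit stated. The strain of these mice is not given in the sources used here, and no genetic change is labelled. Both batches were deposited in 1 table, and the names of the zygote libraries, which carry the number 4 or 5, could not be tied to a batch, so the values are those of 1 pooled sample. The H3K27me3 and transcriptome samples were not used here.

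Of 1424363 fragments from 16 libraries, 1404305 came from the 14 libraries with at least 5000, 3 of them named 4 and 11 named 5. These libraries held 7106 to 197312 fragments, and 379 to 11649 of them lay on chromosome 7, 84564 in all. Fragments of chromatin cannot check the labelled cell type through expression. For the cumulus cells that surround the egg, the median level over 20 marker genes across the genome was 1.11, with 7 intervals above 1 (35.0%) and 2 below (10.0%). For 20 spermatid genes it was 1.08, with 5 above (25%) and 1 below (5.00%). Over all autosomal protein-coding genes 29.7% lay above and 6.80% below. Since no control without the antibody was used here, fragments that stem from open chromatin or chance cutting cannot be told apart from the mark.

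As examples of sequence at receptor genes and other genes, the 250 bases before the annotated start of 6 genes are printed below. They run 5′ to 3′ on the strand of the gene, as RefSeq gives them in GRCm38.p6 (mm10). The receptor genes among them do not all have a low level. Capitals mark each CG dinucleotide, searched as the letters CG, which read the same on both strands. Trim28 (chr7:13023902-13024151, plus strand), which encodes a corepressor that protects imprints, and the vomeronasal receptor gene Vmn1r85 (chr7:13085216-13085465, minus strand) share the receptor bin with the highest level. Olfr543 (chr7:102477903-102478152, minus strand) is an olfactory receptor gene with a high level at the edge of its cluster. Vmn1r135 (chr7:21832101-21832350, plus strand) lies in the longest stretch of the chromosome's receptor clusters with no fragment. Ctsd (chr7:142387828-142388077, minus strand), a lysosomal protease gene, had the highest level of the genes ranked below, and Klk4 (chr7:43880910-43881159, plus strand), a kallikrein protease gene, had a high level with few CG.
Trim28: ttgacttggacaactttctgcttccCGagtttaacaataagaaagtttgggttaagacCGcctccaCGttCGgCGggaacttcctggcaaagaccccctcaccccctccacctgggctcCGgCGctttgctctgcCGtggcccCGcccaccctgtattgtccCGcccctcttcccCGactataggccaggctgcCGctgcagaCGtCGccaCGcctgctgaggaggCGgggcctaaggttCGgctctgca
Vmn1r85: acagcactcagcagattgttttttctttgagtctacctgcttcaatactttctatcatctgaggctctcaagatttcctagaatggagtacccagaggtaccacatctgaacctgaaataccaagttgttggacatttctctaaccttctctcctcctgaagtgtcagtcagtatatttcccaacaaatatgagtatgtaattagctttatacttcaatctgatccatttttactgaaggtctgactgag
Olfr543: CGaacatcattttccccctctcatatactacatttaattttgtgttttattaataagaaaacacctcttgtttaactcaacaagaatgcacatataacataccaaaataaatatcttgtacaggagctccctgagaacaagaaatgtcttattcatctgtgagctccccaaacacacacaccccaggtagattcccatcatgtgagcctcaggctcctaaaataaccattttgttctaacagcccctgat
Vmn1r135: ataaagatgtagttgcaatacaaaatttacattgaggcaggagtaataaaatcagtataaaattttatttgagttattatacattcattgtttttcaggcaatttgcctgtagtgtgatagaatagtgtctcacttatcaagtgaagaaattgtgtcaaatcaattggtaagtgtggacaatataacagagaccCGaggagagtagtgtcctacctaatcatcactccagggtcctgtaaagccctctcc
Ctsd: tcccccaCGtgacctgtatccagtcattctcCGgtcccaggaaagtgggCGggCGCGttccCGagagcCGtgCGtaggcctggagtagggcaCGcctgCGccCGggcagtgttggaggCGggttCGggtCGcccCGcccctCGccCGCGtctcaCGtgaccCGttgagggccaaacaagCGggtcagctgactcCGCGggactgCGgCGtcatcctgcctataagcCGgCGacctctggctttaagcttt
Klk4: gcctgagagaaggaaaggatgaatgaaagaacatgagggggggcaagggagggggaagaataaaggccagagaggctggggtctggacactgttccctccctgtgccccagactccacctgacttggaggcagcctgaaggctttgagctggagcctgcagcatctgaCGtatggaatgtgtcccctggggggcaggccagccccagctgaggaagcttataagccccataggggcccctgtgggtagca

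The printed stretch of Trim28 held 17 CG and that of Ctsd held 27, against 1 each for Klk4, Olfr543 and Vmn1r135 and 0 for Vmn1r85. RefSeq promoters of 300 bases, from 250 before to 50 after the start, were found for 1742 of the 2025 protein-coding genes of chromosome 7 and gave 2049 promoters. Those of receptor genes held a median of 1 CG, and 1 of 373 (0.268%) had 10 or more. Other promoters of the chromosome held a median of 12, and 55.7% had 10 or more. On the other autosomes the corresponding shares were 0.224% and 62.4%. At least 1 CG was found in 74.8% of the receptor promoters of chromosome 7 and in 95.6% of its other promoters.

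Per base, chromosome 7 carried 1.06 times the autosomal mean of H3K4me1 fragments (95% interval 1.05 to 1.06). A level here is the number of fragments per base over the autosomal mean (56.2 fragments per 100 kb), and the interval covers counting error only. Chromosome 7 ranked 1st in protein-coding genes, at 14.2 per Mb, and 5th in level, below chromosomes 11 (1.21), 9 (1.10), 19 (1.08) and 2 (1.07). Chromosome 17, with 1.05, came next below it, and the intervals of chromosomes 7, 2 and 17 overlapped. The lowest autosome was chromosome 3, with 0.866.

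Receptor bins made up 13.2% of the bases of chromosome 7, the highest share of the 19 autosomes, against 2.05% over the other autosomes. With these bins left out, the level of chromosome 7 was 1.13 (1.13 to 1.14). It then ranked 2nd, after chromosome 11 (1.21) and beside chromosome 9 (1.12), whose interval overlapped. Without receptor genes, its density of protein-coding genes was 11.3 per Mb and also ranked 2nd. Leaving out the receptor bins took away their 5780 fragments as well as their bases. Their level was 0.547, below the 1.06 of the whole chromosome.

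**Figure D1:**
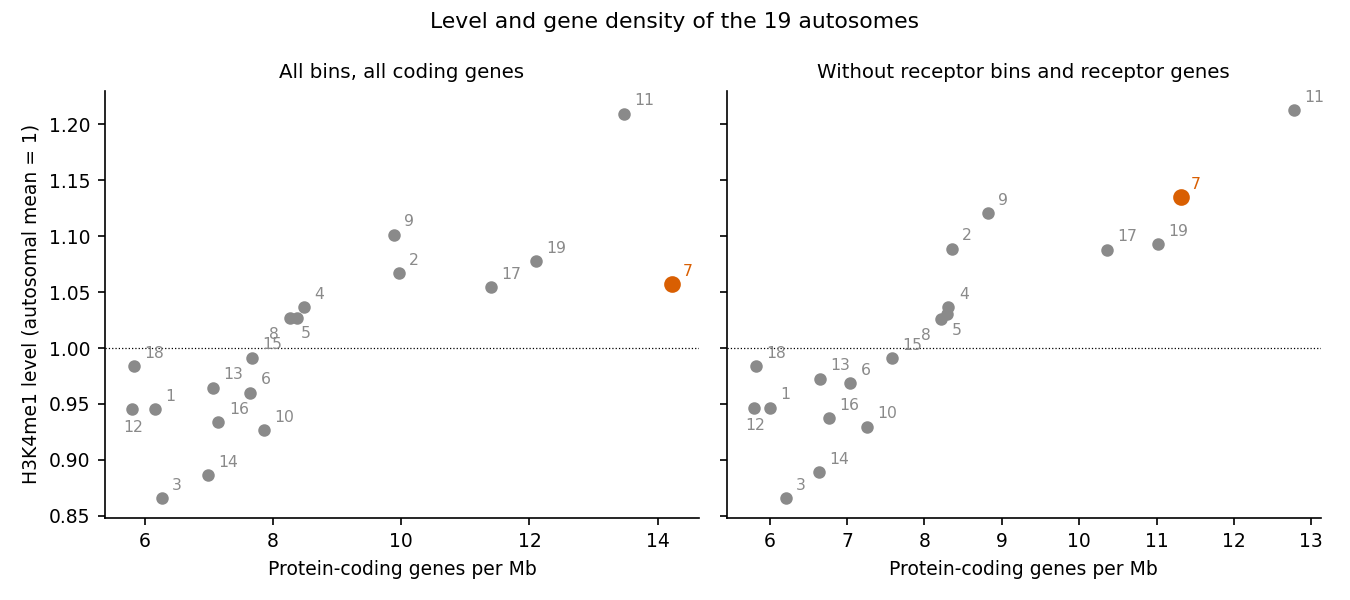
H3K4me1 level (y axis, autosomal mean = 1) against protein-coding genes per Mb (x axis) for the 19 autosomes, 1 numbered point each, with all bins (left) and without receptor bins and receptor genes (right). Chromosome 7 (orange) lies farthest to the right at a level of 1.06 in the left panel, and at 11.3 genes per Mb and 1.13 in the right panel, where only chromosome 11 has both a higher density and a higher level.

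The 3 groups of bins stood far apart. Receptor bins had a level of 0.547 (0.533 to 0.561), other coding bins 1.23 (1.22 to 1.24) and remaining bins 0.870 (0.857 to 0.883). Of the 1424 bins, 502 (35.3%) had an interval above 1, where 25.2% of all autosomal bins did, and 432 (30.3%) had an interval below 1, where 33.2% did. Among receptor bins, 3 of 188 (1.60%) lay above 1 and 138 (73.4%) below, against 7.73% and 64.2% of the receptor bins of the other autosomes. Among other coding bins, 433 (48.1%) lay above and 142 (15.8%) below, against 33.4% and 19.1% elsewhere. Among remaining bins, 66 (19.7%) lay above and 152 (45.4%) below, against 9.98% and 56.6% elsewhere.

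Single bins spread widely inside each group. The middle 80% of receptor bins ran from 0.0534 to 0.948 with a median of 0.543, that of other coding bins from 0.621 to 1.85 with a median of 1.24, and that of remaining bins from 0.397 to 1.46 with a median of 0.801. In all, 17 bins held 0 fragments, and 10 of them were receptor bins. A count of 3 fragments in a bin of 100 kb would give a level of 0.0534, and the exact 95% interval of a bin with 0 fragments reaches 0.0656.

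The receptor bins of chromosome 7 were lower than those of the other autosomes, and its other bins were higher. Receptor bins elsewhere had a level of 0.720, so that the ratio of chromosome 7 to the rest was 0.760 (0.737 to 0.782). Other coding bins elsewhere had 1.13, a ratio of 1.09 (1.08 to 1.10), and remaining bins 0.774, a ratio of 1.12 (1.11 to 1.14). Receptor bins lay at 0.444 times the level of the other coding bins on chromosome 7 (0.432 to 0.456) and at 0.636 times on the other autosomes (0.627 to 0.645). On chromosome 11, the other gene-dense autosome, the 31 receptor bins had a level of 1.08 and the other coding bins 1.35. On chromosome 2, which has 76 receptor bins, these had 0.575, close to chromosome 7, and the other coding bins had 1.20.

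With the bins sorted by their number of protein-coding genes, levels rose from class to class on chromosome 7. Bins without a receptor gene had a level of 0.870 with 0 coding genes, 1.08 with 1, 1.22 with 2, 1.42 with 3 or 4, 1.55 with 5 to 7 and 1.74 (1.67 to 1.81) with 8 or more. The same classes of the other autosomes had 0.774, 1.03, 1.18, 1.31, 1.48 and 1.61. Chromosome 7 was above the rest in all 6 of these classes, by ratios of 1.04 to 1.12 with every interval above 1, and below it in the receptor class. Single autosomes lay above it in each class, however: 1 of 18 with 0 genes, 4 of 18 with 1, 2 or 3 to 4 genes, 3 of 18 with 5 to 7 genes and 4 of 17 with 8 or more. In the receptor class, 17 of 18 autosomes lay above it.

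**Figure D2:**
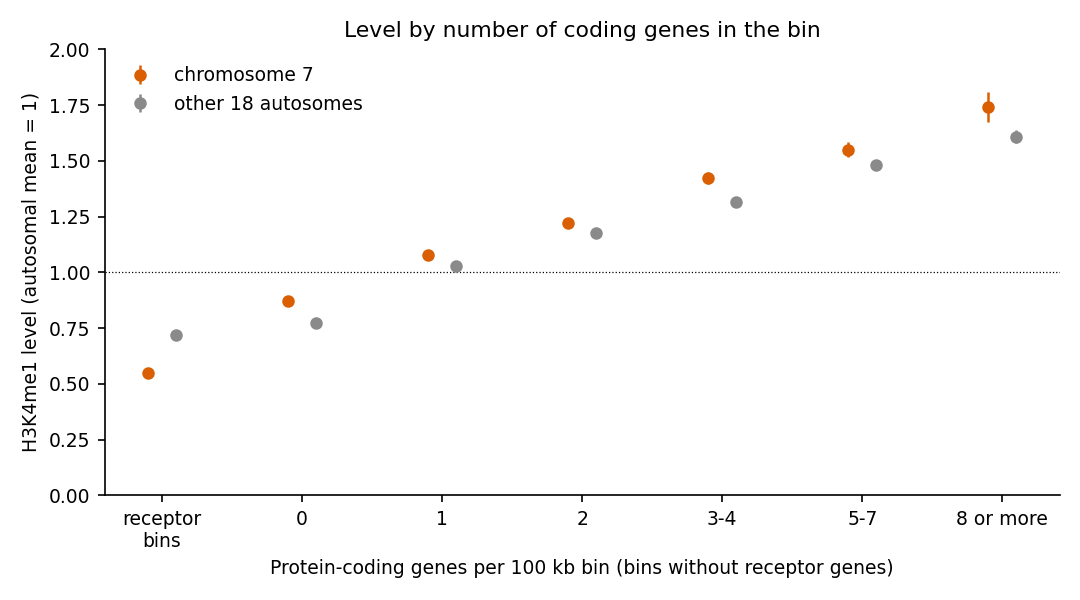
H3K4me1 level (y axis) of receptor bins and of bins with 0 to 8 or more protein-coding genes (x axis), for chromosome 7 (orange) and the other 18 autosomes together (grey), with exact 95% intervals. Chromosome 7 lies above the other autosomes in each class without receptor genes, up to 1.74 against 1.61 for 8 or more genes, and below them in receptor bins, at 0.547 against 0.720.

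Were each bin of chromosome 7 at the mean level of its class on the other autosomes, the chromosome would have a level of 1.02. It carried 1.04 times that number of fragments (1.03 to 1.04), again rank 5 of 19. Without receptor bins the ratio was 1.07 (1.06 to 1.07). The bin mix of the other autosomes at the levels of chromosome 7 would give 1.06. In the 3 libraries named 4 alone, the ratio to the class level was 0.992, on the other side of 1, and in those named 5 it was 1.05. Of the 3, library 4-5 lay below 1 (0.927) and libraries 4-2 (1.07) and 4-4 (1.01) above, and 12 of the 13 libraries above 20000 fragments lay above 1. Leaving out library 4-5 gave 1.05 and leaving out library 5-2 gave 1.03.

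The order of the 3 groups was the same in each of the 13 libraries above 20000 fragments. Receptor bins were lowest in library 4-5 (0.449) and highest in library 5-2 (0.626), around a median of 0.549. Remaining bins ranged from 0.803 to 1.02 and other coding bins from 1.12 to 1.37, so that the ranges of the groups did not overlap. The level of the whole chromosome ranged from 0.957 in library 4-5 to 1.18 in library 5-2, and 12 of 13 libraries lay above 1. The ratio of receptor to other coding bins ranged from 0.401 in library 4-5 to 0.521 in library 5-9. Library 5-11, with 379 fragments on chromosome 7, had 0.490 (0.320 to 0.719) in receptor bins and 1.11 (0.985 to 1.25) in other coding bins. Across the 1422 full bins of the chromosome, Spearman's rho between libraries named 4 and libraries named 5 was 0.722. It was 0.714 across receptor bins, 0.654 across other coding bins and 0.695 across remaining bins. These rho describe bins of the same chromosome that share gene content and base composition, and they carry no test.

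**Figure D3:**
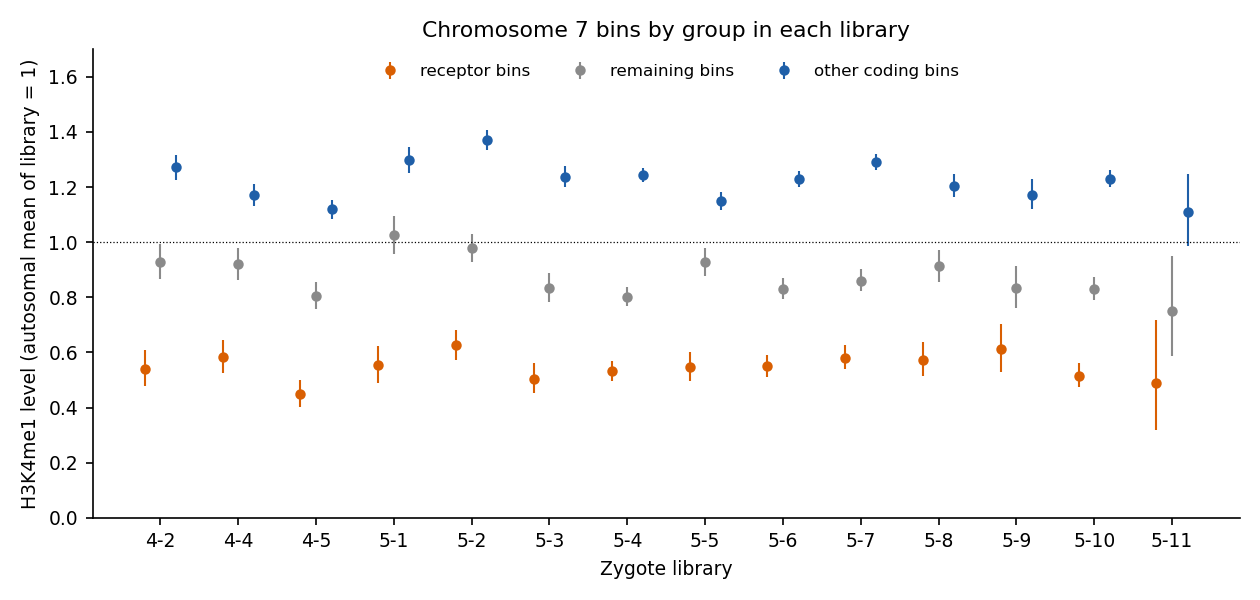
H3K4me1 level (y axis, mean of the autosomes of each library = 1) in receptor bins (orange), remaining bins (grey) and other coding bins (blue) of chromosome 7 in the 14 zygote libraries (x axis), with exact 95% intervals. Receptor bins lie lowest and other coding bins highest in each library, and library 5-11, the shallowest, has the widest intervals.

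The 569 Olfr and Vmn genes and pseudogenes of chromosome 7 comprised 294 Olfr, 170 Vmn1r and 105 Vmn2r genes. Vmn1r and Vmn2r receptors are the 2 families of vomeronasal receptors, and Olfr receptors serve the main olfactory epithelium. Bins with Olfr genes alone among receptors, 59 in number, had a level of 0.756 (0.726 to 0.786), close to 0.737 on the other autosomes. The 66 bins with Vmn1r genes alone had 0.442 (0.420 to 0.463), against 0.780 elsewhere. The 58 bins with Vmn2r genes alone had 0.437 (0.414 to 0.460), against 0.643 elsewhere. The low receptor level of chromosome 7 therefore lay in its vomeronasal bins, while its Olfr bins stood at the level of Olfr bins elsewhere.

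Receptor bins that also held other protein-coding genes, 60 in number, had a level of 0.716 (0.688 to 0.745). The 128 bins with receptor genes and no other protein-coding gene had 0.468 (0.452 to 0.484). On the other autosomes these levels were 0.922 and 0.607. Within bins of receptor genes alone, Olfr bins of chromosome 7 had 0.661 and Olfr bins elsewhere 0.607, while Vmn1r bins had 0.377 against 0.723 and Vmn2r bins 0.361 against 0.544.

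Empty stretches took a large share of the vomeronasal bins. Of the 10 kb steps in receptor bins of chromosome 7, 397 of 1880 (21.1%) held no fragment, against 3.22% in its other coding bins, 7.55% in its remaining bins and 7.15% in receptor bins of the other autosomes. Steps with a fragment covered 4.15 of 6.6 Mb in Vmn1r bins, 4.61 of 5.8 Mb in Vmn2r bins and 5.59 of 5.9 Mb in Olfr bins. Counting only the 10 kb steps with a fragment as bases, receptor bins had a level of 0.665 (0.648 to 0.683), against 0.744 elsewhere. The steps are chosen by the same fragments, which raises low levels by construction. On that scale Olfr bins had 0.765 against 0.757, Vmn1r bins 0.674 against 0.777 and Vmn2r bins 0.527 against 0.688. Whether reads can be placed in the empty stretches was not tested, since no genome sequence was used here.

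Joined where less than 500 kb apart, the receptor bins formed 15 clusters. The lowest was the Vmn1r cluster of 99 genes and pseudogenes from Vmn1r91 to Vmn1r183 (bases 20100001 to 24100000), between Nlrp9b and Zfp180, with a level of 0.221 (0.201 to 0.242). Of its 37 receptor bins, 34 lay below 1, none above, and 8 held 0 fragments. The flanking bins had 1.53, so that the cluster lay at 0.144 times its flank (0.129 to 0.161). Its longest stretch without a fragment ran over 620 kb, from base 21438680 to base 22058908. Its level was 0.154 in libraries named 4 and 0.235 in libraries named 5.

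The second lowest was the cluster from Vmn2r-ps35 to Vmn1r71 (bases 7100001 to 10800000), between Zfp773 and Zscan4b. It holds 42 Vmn2r and 12 Vmn1r genes and had a level of 0.345 (0.318 to 0.374), with 29 of 30 receptor bins below 1. Its longest empty stretch ran over 547 kb, from base 9327595 to base 9874477, and its level was 0.379 times that of its flank. Without these 2 clusters, the remaining 121 receptor bins of chromosome 7 had a level of 0.697 (0.677 to 0.717), and the ratio to other coding bins was 0.563. On the other autosomes, whose receptor bins were all kept, the level was 0.720 (0.710 to 0.731), and the 2 intervals overlapped. The ratio there was 0.636.

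The cluster of 41 Vmn2r and 20 Olfr genes from Vmn2r-ps62 to Vmn2r79 (bases 84800001 to 87100000), between Zfand6 and Nox4, had a level of 0.500 (0.462 to 0.540). Of its 23 receptor bins, 22 lay below 1, and no stretch without a fragment exceeded 33.8 kb. The 15 Vmn2r genes from Vmn2r57 to Vmn2r126 (bases 41300001 to 43100000) had 0.586 (0.534 to 0.642), at 0.480 times their flank. These 2 clusters were low with few empty stretches.

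The largest Olfr cluster, 158 genes from Olfr543 to Olfr692 (bases 102400001 to 105400000), between Rrm1 and Fam160a2, had a level of 0.728 (0.686 to 0.771). Of its 28 bins, 15 lay below 1 and none above. The Olfr clusters from Olfr693 to Olfr716 (bases 106600001 to 107200000) and from Olfr467 to Olfr519 (bases 107800001 to 108900000) had 0.679 and 0.666. The mixed clusters from Vmn1r55 to Olfr1350 and from Vmn1r-ps53 to Vmn1r-ps69 had 0.712 and 0.783.

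The cluster of 25 Olfr genes from Olfr522 to Olfr542-ps1 (bases 140100001 to 140800000), between Sprn and Cyp2e1, was the exception among the longer clusters, with a level of 1.12 (1.02 to 1.23). It lies in surroundings at 1.81, so that it too was below its flank, at 0.620 times (0.554 to 0.692). The clusters of a single bin had levels from 0.569, at Vmn2r-ps61, to 1.23, at Vmn1r-ps87. In 10 of the 15 clusters the interval of the ratio to the flank lay below 1. It lay above 1 in 1 cluster, the bin of Vmn1r90, with a ratio of 1.48 (1.11 to 1.94). It included 1 in the other 4, from Vmn1r-ps53 to Vmn1r-ps69, from Olfr693 to Olfr716, and in the bins of Vmn1r-ps87 and Vmn2r-ps61.

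The change at the borders of receptor stretches was gradual over several bins of 100 kb. Inside, levels on chromosome 7 were 0.413 at 5 or more bins from the edge, 0.499 at 3 to 4, 0.590 at 2 and 0.709 in the edge bin itself. Outside, they were 0.850 in the first bin, 1.07 in the second, 1.18 in the third and 1.28 at 4 to 5 bins. Beyond 20 bins the level was 1.11. The number of other protein-coding genes per bin moved with it, from a mean of 0.269 in the innermost bins to 1.12 in the edge bin, 2.16 in the first outer bin and 3.08 at 4 to 5 bins, and its part in the profile was not tested. The other autosomes had 0.536, 0.624, 0.731 and 0.895 inside and 1.08, 1.15, 1.18 and 1.17 outside, so that they passed 1 in the first outer bin and chromosome 7 in the second. Bins without coding genes next to an edge had 0.414 (0.365 to 0.468) on chromosome 7, over 11 bins, and 1.16 over 49 bins elsewhere.

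**Figure D4:**
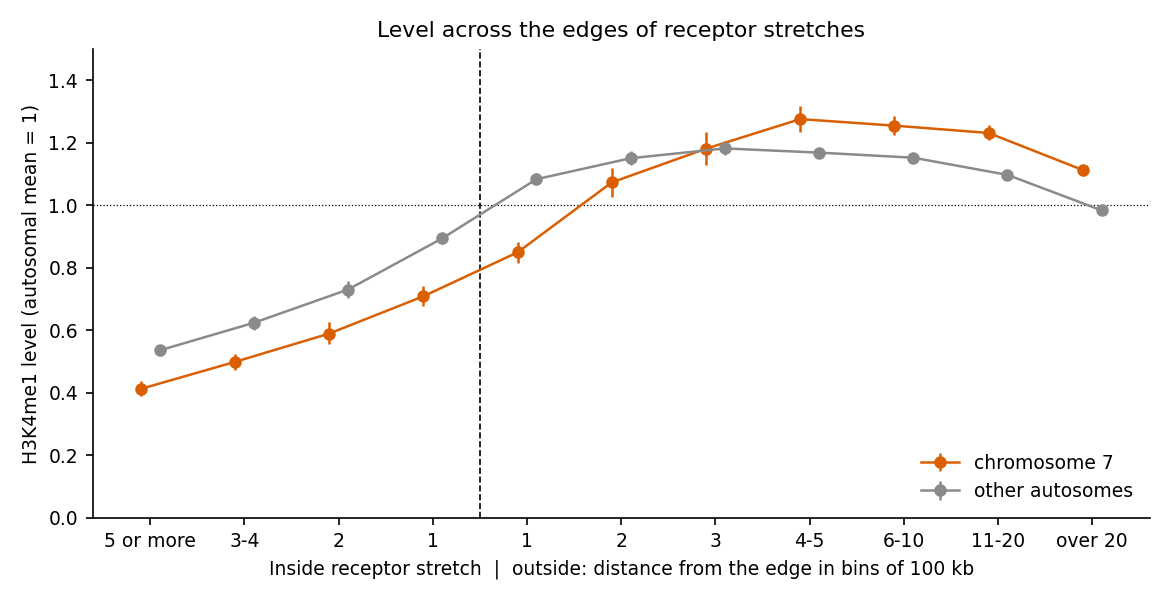
H3K4me1 level (y axis) by distance from the edge of a receptor stretch in bins of 100 kb (x axis), inside to the left of the dashed line and outside to the right, for chromosome 7 (orange) and the other autosomes (grey), with exact 95% intervals. On chromosome 7 the level goes from 0.413 deep inside to 1.28 at 4 to 5 bins outside, and it is below the other autosomes from the innermost bins to the second bin outside.

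The receptor bins with the highest levels were those that also hold other genes. The highest (bases 13000001 to 13100000), with 105 fragments in 13 libraries and a level of 1.87 (1.53 to 2.26), holds Trim28, the ubiquitin-conjugating enzyme gene Ube2m, Chmp2a, Zbtb45, Mzf1 and, as its receptor gene, Vmn1r85. The next (bases 140200001 to 140300000), with 1.80 (1.46 to 2.18), holds the scavenger receptor gene Cd163l1 and Olfr524, and at its densest base 6 fragments of 1 library overlapped. At the other end, the bins from bases 5700001, 9700001, 20300001, 21500001 and 21600001, with genes such as Vmn2r46, Vmn1r243, Vmn1r244, Vmn1r130 and Vmn1r131, held 0 fragments.

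By single genes, counted with 2.5 kb on each side, 60 of 124 Vmn1r genes and 29 of 239 Olfr genes held 0 fragments. So did 123 of all 2025 protein-coding genes of the chromosome, 25 of the 1610 outside the receptor families and 404 of 18535 on the other autosomes. The latter 2 sets had medians of 10.8 and 13.3 expected fragments. The autosomal mean gives a median of 3.33 fragments per Vmn1r gene and 3.35 per Olfr gene, so that an interval below 1 could hardly be reached. Of the 52 Vmn2r genes, which are longer, 35 had an interval below 1 and 0 above, with a median level of 0.334, where 6.80% of autosomal protein-coding genes lay below and 29.7% above. The median was 0.286 over Vmn1r genes and 0.599 over Olfr genes, against 1.24 over all 2025 protein-coding genes of chromosome 7. No Vmn1r gene had an interval above 1, and 6 of 239 Olfr genes (2.51%) did. Sequences of these genes are alike, and how the submitters placed reads that match several copies is not given in the sources used, so values of single receptor genes are uncertain.

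Vmn1r135, whose promoter is printed above, held 0 fragments, and its exact 95% interval reaches 1.11, so that a level of 1 lies inside it. Vmn1r85, also printed, had 1.50 (0.487 to 3.50) from 5 fragments. Vmn2r35 held 3 fragments, a level of 0.138 (0.0284 to 0.403), and 0.0462 without library 5-11. Vmn2r57 had 0.297 (0.136 to 0.564), Vmn2r29 had 0.354 and Vmn2r58 had 0.393, while Vmn2r63 and Vmn2r28 reached 1.00 and 1.06. Among Olfr genes, Olfr45 had the highest level, 3.83 (2.04 to 6.55) from 13 fragments, and 1.99 without library 5-7. Olfr543, at the border of the largest Olfr cluster, had 2.90 (1.39 to 5.34) from 10 fragments, 1.57 without library 5-2, and 0 fragments in the libraries named 4.

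Around annotated gene starts, the level at receptor genes was higher in the gene than before it. In steps of 500 bp on chromosome 7, it was 0.315 and 0.458 in the steps from 1 kb to 500 bp and from 500 bp to 0 bp before the start. It was 0.983 and 0.897 in the first and second steps after the start, and 0.448 in the third. Within 250 bp of the start the level was 0.894 (0.703 to 1.12) from 75 fragments, 1.64 times (1.27 to 2.09) that at 500 bp to 2.5 kb away, and 10 of 13 libraries had a ratio above 1. On the other autosomes this ratio was 1.27 (1.07 to 1.50). Olfr and Vmn1r genes are short, with a coding sequence that introns do not interrupt, and some of the annotated starts may be starts of the coding sequence.

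Other gene starts of chromosome 7 were split by their promoter. At the 934 starts with 10 or more CG in the promoter, the level within 250 bp was 1.34 (1.19 to 1.51), at 500 bp to 2.5 kb it was 1.31, and at 2.5 to 5 kb it was 1.52 (1.47 to 1.57). The centre thus stood at 1.02 times its shoulder (0.902 to 1.16), and 5 of 13 libraries lay above 1. At the 742 starts with fewer CG, the centre had 1.71 (1.52 to 1.93) and the shoulder 1.37, a ratio of 1.25 (1.10 to 1.41), with 8 of 13 libraries above 1. On the other autosomes the ratios were 1.00 and 1.14. Starts that lie near each other count the same fragments, so these intervals are too narrow.

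**Figure D5:**
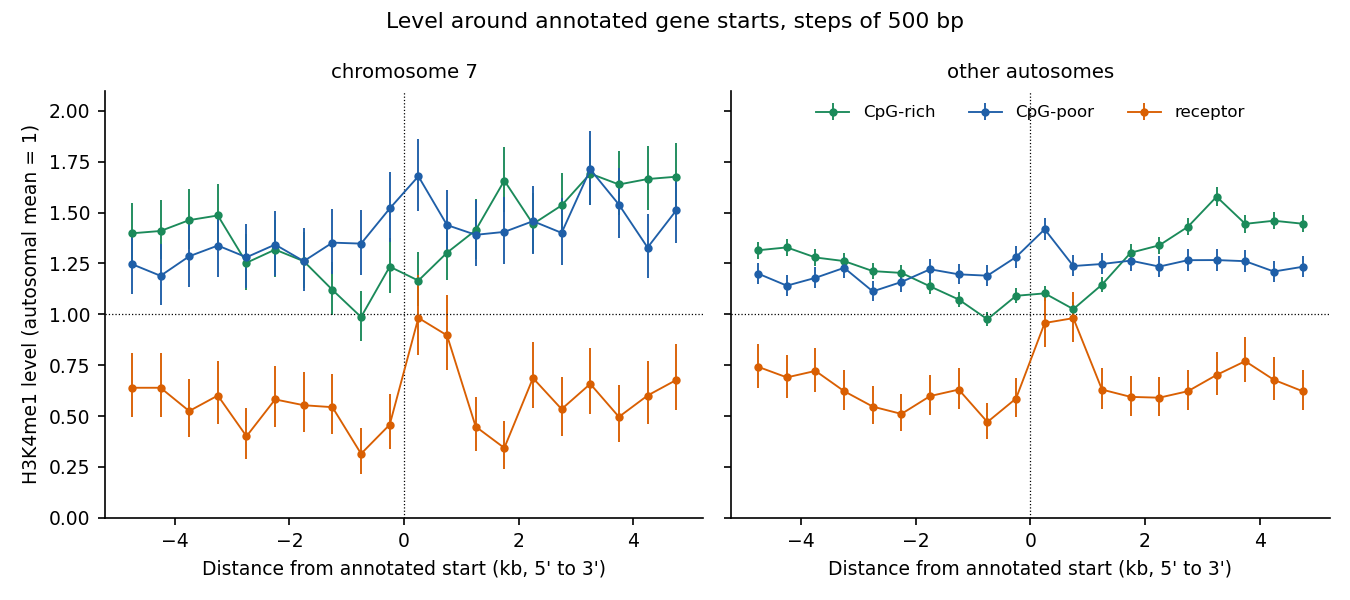
H3K4me1 level (y axis) in steps of 500 bp around annotated starts of protein-coding genes (x axis, distance in kb, 5′ to 3′), for starts with 10 or more CG in 300 bases (green), with fewer (blue) and of receptor genes (orange), on chromosome 7 (left) and the other autosomes (right), with exact 95% intervals. Receptor genes of chromosome 7 lie lowest at each distance and reach 0.983 in the first 500 bp of the gene. CpG-rich starts have a dip from 1 kb to 500 bp before the start, at 0.987 on chromosome 7 and 0.976 on the other autosomes.

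At the scale of bins, the level was higher where a CpG-rich start lay in the bin, except in the few gene-rich bins of chromosome 7 given below. Bins of chromosome 7 that overlap exactly 1 protein-coding gene had a level of 1.02 (1.01 to 1.04) without a CpG-rich start in the bin. With such a start in the bin, the level was 1.28 (1.25 to 1.31). On the other autosomes these levels were 0.995 and 1.14. Bins without such a start can include bins in the body of a gene whose CpG-rich start lies in another bin. Bins with more genes were classed by the number of genes with a CpG-rich start in the bin. In bins with 5 or more genes, the levels on chromosome 7 were 1.53, 1.51, 1.57 and 1.62 with 0, 1, 2 and 3 or more such genes. The first and the last of these had overlapping intervals, and the classes with 0 and 1 comprised only 10 bins each. On the other autosomes, bins with 5 or more genes had 1.22 (1.19 to 1.25) with 0 such genes, over 121 bins. They had 1.51, 1.52 and 1.57 with 1, 2 and 3 or more. In bins of chromosome 7 with 2 to 4 genes the levels were 1.18 with 0 and 1.38, 1.38 and 1.37 with 1, 2 and 3 or more.

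The highest other coding bins held genes of several kinds. The bin from base 46100001 to base 46200000 held 159 fragments, the most of any bin on the chromosome, at a level of 2.83 (2.41 to 3.30). It holds Kcnj11 and Abcc8, the subunits of the ATP-sensitive potassium channel, and Ush1c. Its level in the 13 libraries above 20000 fragments ran from 0.710 through a median of 2.81 to 6.46, and it was 4.09 in libraries named 4 and 2.55 in libraries named 5. The bin of Arrb1, which encodes beta-arrestin 1 (bases 99500001 to 99600000), had 2.78 (2.36 to 3.25), with the same libraries from 1.75 through a median of 2.67 to 6.74. The bin of the apolipoprotein genes Apoe, Apoc1, Apoc4 and Apoc2 with Relb, Clptm1 and Clasrp (bases 19600001 to 19700000) had 2.74. The nucleotide receptor genes P2ry6 and P2ry2 with Arhgef17 (bases 100900001 to 101000000) had 2.65, and Map6, Serpinh1 and Gdpd5 (bases 99300001 to 99400000) had 2.54. In each of these 5 bins the fragments came from 13 libraries, and at most 4 fragments of 1 library overlapped at a base.

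The lowest other coding bins lay in or beside tandem gene families. The bin of Scgb2b15 and Scgb1b15 (bases 32800001 to 32900000), secretoglobin genes of the androgen-binding protein cluster, held 0 fragments, and that of Scgb2b17 and Scgb1b17 (bases 33000001 to 33100000) held 1. The bins of Gm4070 and of Gvin1, a gene of very large interferon-inducible GTPases, held 2 each, at levels of 0.0356. The bin of Gm10302 (bases 9500001 to 9600000), inside the cluster from Vmn2r-ps35 to Vmn1r71, held 0. Among remaining bins, those from bases 9400001, 9600001, 32700001, 32900001 and 39000001 held 0 fragments. The highest remaining bins, from base 145000001 and from base 37800001, both had 2.14 (1.77 to 2.55).

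At 10 kb, 91 of 14235 bins of chromosome 7 (0.639%) reached 3 times the mean, given 20 or more fragments of 5 or more libraries, against 0.518% of autosomal bins. Of these, 82 lay in other coding bins (0.911% of their 10 kb bins), 8 in remaining bins and 1 in a receptor bin. None exceeded 10 times the mean. They formed 80 lone bins, 4 pairs and 1 run of 3, which lay in Arrb1 from base 99560001 to base 99590000, with 73 fragments of 12 libraries and a level of 4.33 (3.39 to 5.44). The pair in Abcc8 had 4.18 (3.07 to 5.56), and that in Rasgrp4 had 3.65 (2.62 to 4.95). The highest lone bins, both with 41 fragments and 7.29 (5.23 to 9.90), lay in the integrin gene Itgad (bases 128180001 to 128190000) and in Cd163l1 (bases 140220001 to 140230000), the lone receptor bin of the 91.

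Of the 2025 protein-coding genes of chromosome 7, 588 (29.0%) had an interval above 1, against 29.7% over the autosomes, and 111 (5.48%) had an interval below 1, against 6.80%. Outside the receptor families, 582 of 1610 (36.1%) lay above and 71 (4.41%) below, where 31.3% of such genes on the other autosomes lay above. Their median level was 1.41 on chromosome 7 and 1.24 elsewhere. Genes whose windows overlap share fragments, and fragments carry no strand of a transcript.

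Among 1430 genes where the autosomal mean gives at least 5 fragments, Ctsd had the highest level, 4.00 (2.83 to 5.49) from 38 fragments of 12 libraries. Apoc2, which encodes the activator of lipoprotein lipase, followed with 3.91 (2.53 to 5.78). Kirrel2, a nephrin-like adhesion gene, had 3.62, Gatd1 had 3.58 and Klk4 had 3.50 (2.11 to 5.47). Rps19, a ribosomal protein gene, had 3.48, Lhb, the beta subunit of luteinizing hormone, had 3.46, and Iglon5, a neuronal adhesion gene, had 3.43 (2.48 to 4.62). Pkp3, a desmosomal plaque gene, had 3.40, and P2ry2 had 3.39. Ctsd has a CpG-rich promoter and Apoc2 and Klk4 do not, with 33, 7 and 3 CG in 300 bases.

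Among 417 genes where at least 20 fragments are expected, Gm4070 (0.0557) and Gvin1 (0.0558) were the lowest, with 2 fragments each. These rest on few reads, and Gm4070 had 0.0280 without library 5-11. Outside the receptor families and these tandem copies, Sult2a8, a sulfotransferase gene, had 0.346 (0.150 to 0.682) and Tyr, the tyrosinase gene of pigment cells, had 0.386 (0.221 to 0.627). Luzp2, with 100 fragments over a gene of more than 300 kb, had 0.406 (0.330 to 0.493), and Folh1, a glutamate carboxypeptidase gene, had 0.414 (0.231 to 0.682). Folh1 lies inside the receptor cluster from Vmn2r-ps62 to Vmn2r79, whose level was 0.500.

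Several other tandem families of chromosome 7 had medians close to or above that of all the chromosome's genes. Over all its protein-coding genes the median was 1.24, with 29.0% of intervals above 1 and 5.48% below, against which the counts of each list are given. These shares include the receptor genes. Outside the receptor families the median was 1.41, with 36.1% above and 4.41% below. The Cyp2 median below lay under that 1.41, and the Ceacam and Psg share above 1 was close to that 36.1%. Kallikreins, a family of secreted serine proteases, had a median level of 1.91 over 26 genes, with 13 intervals above 1 (50%) and 0 below, led by Klk4 and Klk6 (3.11, 1.95 to 4.71). The Ceacam and Psg genes, which encode cell adhesion proteins and placental glycoproteins, had 1.64 over 28 genes, with 11 above (39.3%) and 0 below, from Ceacam11 (0.625) to Ceacam16 (3.00, 2.15 to 4.07). The Siglec genes, sialic acid receptors of immune cells, had 1.70 over 7, with 4 above (57.1%). Cyp2 genes, which encode drug-metabolizing enzymes, had 1.22 over 15, with 1 above (6.67%), Cyp2s1 at 3.27 (2.28 to 4.54).

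The zinc finger genes named Zfp, many of which encode KRAB repressors of retroelements, had a median of 1.15 over 93 genes. Of these, 10 intervals lay above 1 (10.8%, against 29.0% over the chromosome) and 3 below (3.23%, against 5.48%). Zfp768 had 3.31 (1.81 to 5.56) and Zfp446 had 2.94, while Zfp109 had 0.361 (0.133 to 0.786). Nlrp genes, several of which act in the oocyte and early embryo, had 1.04 over 13, with 2 above and 2 below (15.4% each). Nlrp6 (2.28, but 0 fragments in the libraries named 4) and Nlrp12 (1.87) were the highest. The lowest were Nlrp9b (0.604, 0.395 to 0.885), which borders the Vmn1r cluster, and Nlrp14 (0.714, 0.500 to 0.989). Nlrp14 lies in the receptor cluster from Olfr693 to Olfr716. Nlrp5, an egg protein gene also known as Mater, had 1.25 (0.907 to 1.69). It lies inside the bounds of the Vmn1r cluster that Nlrp9b borders.

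Other families had medians below 1. Mrgpr genes, itch and pain receptors of sensory neurons, had 0.657 over 19 genes, with 2 above and 2 below (10.5% each, against 29.0% and 5.48% over the chromosome). They included Mrgpra4 at 2.74 and Mrgprb2 at 0.147. Trim genes had 0.740 over 16, with 3 above (18.8%) and 2 below (12.5%). Most of them lie inside the largest Olfr cluster, whose level was 0.728, among them the lowest, Trim34a, at 0.390 (0.127 to 0.911). The Trim genes outside it were Trim28 at 2.70 (1.60 to 4.26), Trim3 at 1.51, Trim72 at 1.51 and Trim66 at 1.37. The beta-globin genes, which lie inside the largest Olfr cluster, had 0.556 over 5 genes, with intervals that all included 1. The 4 Zscan4 genes, expressed in 2-cell embryos, lie between the vomeronasal clusters and held 5 fragments together, a summed level of 0.234 (0.0760 to 0.546). Zscan4f held 0 fragments. Zscan4 copies are near identical, so their single values are uncertain.

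Imprinted genes differed from domain to domain. In the domain of H19, Igf2 and Kcnq1 near the end of the chromosome, 11 of 17 genes (64.7%, against 29.0% over the chromosome) had an interval above 1 and 0 below, with a median level of 1.78. Tssc4 had 2.78 (1.44 to 4.86), Ascl2, a placental transcription factor gene, 2.63 (1.31 to 4.70), and Cd81 2.56 (1.71 to 3.67). In the libraries named 4 alone, Cd81 had 0.989. Tspan32 had 2.09, Nap1l4 2.07, Osbpl5 1.94, Tnfrsf22 1.79, Igf2, a growth factor gene, 1.78 (1.10 to 2.71), Tnfrsf23 1.60, Dhcr7 1.59 (0.330 in the libraries named 4 alone) and Kcnq1, a potassium channel gene, 1.40 (1.23 to 1.58). The intervals of Phlda2 (1.89), Ins2 (1.76), H19 (1.17), Cdkn1c (1.15), Slc22a18 (1.05) and the noncoding Kcnq1ot1 (1.05) included 1. Kcnq1ot1 overlaps Kcnq1, and fragments in the overlap counted for both.

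In the Snrpn to Ube3a domain, 3 of 8 genes (37.5%, against 5.48% over the chromosome) had an interval below 1 and 0 above, with a median of 1.02. They were Snrpn, a splicing factor gene, with 0.459 (0.381 to 0.548) from 122 fragments, the ubiquitin ligase gene Ube3a with 0.449 (0.282 to 0.680), and Snurf, which shares its sequence with Snrpn, with 0.257 from 4 fragments and 0.136 without library 4-4. Ndn (1.87), Mkrn3 (1.65), Peg12 (1.16), Magel2 (1.10) and Atp10a (0.934) had intervals that included 1. In the Peg3 domain, the long gene Usp29 had 1.38 (1.19 to 1.60) from 188 fragments and Peg3, a zinc finger gene, 0.338 (0.124 to 0.736) from 6. Zim1 (1.12), Zim3 (1.03) and Zim2 (0.683) had intervals that included 1. Fragments were not assigned to the maternal or the paternal copy.

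Ribosomal protein genes had a median level of 2.01 over 14 genes, with 7 above 1 (50%, against 29.0% over the chromosome) and 0 below. Rps19, given above, was among these 7, while Rpl27a (0.435) and Rps13 (0.463) held 2 fragments each. Respiratory chain and glycolysis genes had 1.36 over 13, with 3 above (23.1%), from Ndufa3 (3.19, 1.74 to 5.35) to Ndufc2 (0.417). Skeletal and heart muscle genes had 1.51 over 11, also with 3 above (27.3%). Neither share exceeded that of the chromosome's genes. The highest muscle gene was the troponin gene Tnnt1, at 3.04 (2.02 to 4.39). Developmental transcription factor genes had 1.33 over 16, with 7 above (43.8%), such as Six5 (3.16) and Zfp536 (1.73, 1.57 to 1.89), and 1 below (6.25%), Hmx2 with 1 fragment (0.125).

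The 23 genes of at least 300 kb are measured with the most fragments, and they split into high and low. Of these, 10 had an interval above 1 (43.5%) and 7 below (30.4%), with a median of 1.04. Over the chromosome, where most genes have far fewer fragments, the shares were 29.0% and 5.48%. Zfp536, Galnt18 (1.55, 1.37 to 1.74), Tenm4 (1.49) and Shank2 (1.46) were the highest. Luzp2, the glutamate receptor gene Grm5 (0.445, 0.374 to 0.525), Snrpn, and Nell1 (0.747) were the lowest. The GABA receptor genes Gabrg3 (0.761, 0.676 to 0.854) and Gabra5 (0.756, 0.599 to 0.941) also lay below 1.

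Fragment lengths differed little between the groups of bins. The median was 332 bp in receptor bins, 320 bp in other coding bins and 328 bp in remaining bins of chromosome 7. Fragments under 150 bp made up 6.73% (6.10 to 7.41) in receptor bins, 8.73% (8.51 to 8.95) in other coding bins and 7.04% (6.65 to 7.44) in remaining bins. The other autosomes had 6.39%, 8.84% and 7.38%, in the same order.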

How the data were processed

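Single mouse zygotes were profiled for H3K4me1 by CUT&Tag in 2 batches, and the submitters' processing notes name the build mm10. The deposited table gives 1 fragment per line with its ends, its library and a count, which was 1 in every line. No source used here gives the aligner, the treatment of duplicates and of reads that match several places, quality filters or any Tn5 shift. Lines were counted per region by fragment midpoint with Python 3.11.15, numpy 2.4.6, pandas 2.3.3, scipy 1.17.1 and matplotlib 3.10.9. The counting code was tested on simulated data.

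The 14 of 16 libraries that reached 5000 fragments (chromosomes 1 to 19, X, Y) were pooled. The labels tie no library to a batch, so that the pool is 1 sample, with no test and no standard deviation. Intervals are exact 95% intervals (Poisson for levels, Clopper-Pearson for shares, conditional for ratios). These reflect counting error alone. Fragments amplified from the same molecule would not be independent, and no source used here says whether reads carry a molecular identifier. On chromosome 7 the repeated lines within a library numbered 0. Chromosome lengths run from the first to the last fragment and include unsequenced bases.

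Gene positions came from RefSeq for GRCm38.p6. Of its genes, 331 that end before the first fragment of their chromosome, 10 of them on chromosome 7, carry coordinates of other scaffolds and were left out. Receptor bins less than 500 kb apart were joined into clusters. Gene levels include 2.5 kb on each side. Named are the 10 highest and 10 lowest genes with at least 5 or 20 expected fragments, the 2 highest and 2 lowest members of 24 lists, all imprinted members, genes of the 5 highest and 5 lowest bins of each group, genes in runs of 3 enriched bins of 10 kb, and the ends and neighbours of clusters. Other named genes (among them Nlrp5, Tenm4, Shank2, Nell1, Itgad, Rasgrp4 and the printed promoters) were chosen after their values were seen. Zfp264, Uqcrfs1, Actn3 and Casq1 were not matched on chromosome 7. The chromosome, the lists and the rules were chosen with earlier results of these data known. The class of 10 or more CG, the windows around starts, the steps from cluster edges, fragment lengths and the family split of receptor bins were added after the data were seen.

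Alternatives were other bin sizes, equal weights, other bases counted, libraries named 4 or 5 alone, and each library left out. Some members of these lists are not reported here.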

Additional observations from a re-analysis of the deposited data

Results flagged for a closer look

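The 2 libraries under the depth minimum were in no comparison. They held 740 fragments together, 38 of them on chromosome 7, a level of 0.904 (0.639 to 1.24). These 38 fragments are more than the 3 that a count of 0 allows, and the interval includes both 1 and the 1.06 of the 14 libraries. Their receptor bins held 2 fragments, a level of 0.360 (0.0436 to 1.30), their other coding bins 24, a level of 0.902 (0.578 to 1.34), and their remaining bins 12, a level of 1.21 (0.627 to 2.12). These intervals overlap one another, so that the order of the groups was not detectable at this depth.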

How the results depend on the processing

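No paired analysis was possible because the table pools both batches and no result comes from a test. Receptor bins lay below remaining bins and these below other coding bins under every alternative, but the contrast shrank where empty bases were left out. With bases counted in steps of 1 kb that hold a fragment, which evens out levels by construction, the chromosome had 1.02, receptor bins 0.898, other coding bins 1.05, remaining bins 0.974, the ratio of receptor to other coding bins 0.854, the level over that from bin classes 1.02, and 77 bins were high and 2 low. With steps of 10 kb, added after the data were seen and also chosen by the fragments counted, these were 1.09, 0.665, 1.22, 0.903, 0.544 and 1.06. Without the 2 clusters with long empty stretches, also added, the chromosome had 1.10, receptor bins 0.697, remaining bins 0.884, the ratio 0.563 and the level over bin classes 1.07. Libraries named 4 alone gave 1.02 for the chromosome, 0.517 for receptor bins, 1.18 for other coding bins, 201 high and 215 low bins at their lower depth, and 0.992 for the level over bin classes, which turned its direction. The cause was not tested. Libraries named 5 alone gave 1.07, 1.25 for other coding bins and 1.05 over bin classes. Bins of 50 kb gave 1.25 for other coding bins, a ratio of 0.426, 1.05 over bin classes and 681 low bins, and bins of 200 kb gave 0.583, 1.22 and 0.842 for the 3 groups, 0.479, 1.03, 297 high and 249 low, since the number of bins differs. Equal weights gave 1.22 for other coding bins and no bin counts.

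Leaving out each library in turn, the chromosome ranged from 1.05 to 1.06, receptor bins from 0.541 to 0.555, other coding bins from 1.22 to 1.24, remaining bins from 0.861 to 0.881, the ratio from 0.440 to 0.447, the level over bin classes from 1.03 to 1.05, high bins from 455 to 499 and low bins from 402 to 436. Single genes turned their direction in 7 cases. Vmn2r35 had 1.33 with equal weights, where the shallow library 5-11 counts as much as the others. In libraries named 4 alone, Psg25 had 0.568, Siglecg 0.659, Cd81 0.989, Dhcr7 0.330, and Olfr543 and Nlrp6 held 0 fragments. Depth limits short genes, for which few fragments are expected.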
